A study of Homo sapiens with 4 samples.

Results

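The chemokines and chemokine receptors were taken as the protein-coding genes of the deposited expression table whose symbol was CCL or CXCL followed by a number, CCR or CXCR followed by a number, or one of a few further family names (XCL1, CX3CL1, CX3CR1, ACKR2, ACKR4 and CCRL2). They were 50 of the 32673 genes in the table, of which 31 encode ligands and 19 encode receptors, and the rule used symbols and gene type alone. RNA of TF1-BA cells, which are sensitive to imatinib, was compared with RNA of TF1-BAR cells, which are resistant to it, in 2 libraries per cell line. TF1 is a human erythroleukaemia cell line that grows in granulocyte-macrophage colony-stimulating factor (GM-CSF), and both lines carry the BCR-ABL oncogene, which was introduced with a retrovirus. TF1-BAR is the line that came from TF1-BA under prolonged exposure to imatinib, an inhibitor of the BCR-ABL kinase, so each condition is represented by a single line. Both were grown in RPMI-1640 with GM-CSF and 10% serum, and by the labels 2 µM imatinib was added to the TF1-BAR cultures. Whether the drug was present at the RNA extraction is not stated, so resistance cannot be told apart from an effect of the drug itself. The resistant libraries also bear the title VECTOR, and a vector effect, if there is one, would be part of every difference given here. Nothing in the labels says that the 2 libraries of a line came from separate cultures, so the p-values measure the spread between these libraries, which may be technical.

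Chemokines are small secreted proteins that guide the movement of leucocytes. They are sorted by the spacing of their first cysteines into CC (CCL), CXC (CXCL), C (XCL) and CX3C (CX3CL) ligands, and most bind G protein-coupled receptors of the matching class. A bound receptor releases Gi proteins, which activate phosphoinositide 3-kinase and small GTPases, and it is then switched off by receptor kinases and arrestins. Atypical receptors bind chemokines without this signal and remove or present them. In leukaemia, chemokines and their receptors are known for the exchange between leukaemic cells and the bone marrow, and many ligand genes are classical targets of the transcription factor NF-kB.

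The values were FPKM, fragment counts that the authors scaled to the length of each transcript and to the sequencing depth of each library, so that levels can be compared between genes per length. The fragments behind them, recovered from the FPKM, numbered between 15465497 and 18042299 per library, of which the chemokine and receptor genes held between 1360 and 1688. The cell line was checked with 8 markers of erythroleukaemia cells, which were all above the filter on low values. GATA1, an erythroid and megakaryocytic transcription factor, was at 75.4 and 74.7 FPKM in TF1-BA and at 65.9 and 70.6 FPKM in TF1-BAR. An adjusted p under 0.05, which 26.9% of all genes tested had, was found for 2 of the 8 markers, both higher in TF1-BAR, namely KIT, a growth factor receptor, with means of 26.9 and 59.0 FPKM (adjusted p = 0.00409), and CD33, a myeloid surface protein, with means of 30.5 and 56.3 FPKM (adjusted p = 0.00555).

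In the TF1-BAR cells, the neutrophil attractants CXCL8, CXCL2 and CXCL3 and the T cell and monocyte attractant CCL5 were downregulated, and the monocyte attractant CCL2 was upregulated. The means of CXCL2 and CXCL3 were 4.10-fold and 4.42-fold lower in the resistant line, and those of CXCL8 and CCL5 were 3.30-fold and 2.66-fold lower. The mean of CCL2 was 5.16-fold higher. These were 5 of the 13 members with a mean of at least 0.5 FPKM over the 4 libraries, the genes on which a test was run. A gene was called when its log2 fold change of FPKM + 0.5 was at least 1 in size and its p from limma, adjusted by the Benjamini-Hochberg method over all genes, was under 0.05. Among all 15519 genes tested, 4.75% were called by this rule, 3.05% higher in TF1-BAR and 1.69% lower, against 38.5% of the tested members, 1 higher and 4 lower. The higher one, CCL2, passed the filter only through TF1-BAR, where it was high, so its entry into the test was not independent of the difference. The adjusted p alone passed in 26.9% of all genes and in 46.2% of the tested members, since the receptor-like gene CCRL2 joined the 5. The libraries of the 2 lines did not overlap in 76.9% of the tested members, close to the 69.3% of all genes, with 5 members above and 5 below. Of those below, ACKR2 passed the filter only through TF1-BA. The median log2 fold change was 0.08 over the tested members and 0.07 over all genes tested.

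The count of 5 depended on single libraries. Without TF1-BA replicate 1, 0 members were called although 6 had an unadjusted p under 0.05 by limma, and the count over all genes fell to 144. Without TF1-BA replicate 2, 0 members were called, 7 had an unadjusted p under 0.05, and 42 genes were called in all. Without TF1-BAR replicate 2, CCL5, CXCL2 and CXCL3 remained, whereas CXCL8 and CCL2 did not. In each of these fits a line has a lone library that is assumed to vary like the other line. An exact permutation test of 2 libraries against 2 cannot give a two-sided p below 0.333, and no such test is given. In bulk RNA, fewer cells of a type and less RNA per cell cannot be told apart.

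Most members were barely expressed. Of the 50 genes, 13 were tested (9 ligands and 4 receptors), 16 were under the filter but had more than 3 fragments in at least 1 library (6 ligands and 10 receptors), 17 had at most 3 fragments in every library (12 ligands and 5 receptors), and 4 ligands had none. More than 3 fragments in all 4 libraries were found for 18 members. The tested members carried between 88.1% and 92.9% of the members' summed FPKM. This sum was 40.0 and 42.5 FPKM in TF1-BA and 33.2 and 32.7 FPKM in TF1-BAR. The ligands contributed 25.6 and 28.3 FPKM in TF1-BA and 15.4 and 16.3 FPKM in TF1-BAR, whereas the receptors contributed 14.4 and 14.2 against 17.8 and 16.5 FPKM. The ligand sum was therefore below the TF1-BA libraries in both TF1-BAR libraries, and the receptor sum above them. The receptor sum includes the receptor-like gene CCRL2, which was not called, with means of 3.35 FPKM in TF1-BA and 5.19 FPKM in TF1-BAR. Not all receptors were higher, since ACKR2 had means of 0.618 FPKM in TF1-BA and 0.449 FPKM in TF1-BAR.

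**Figure D1:**
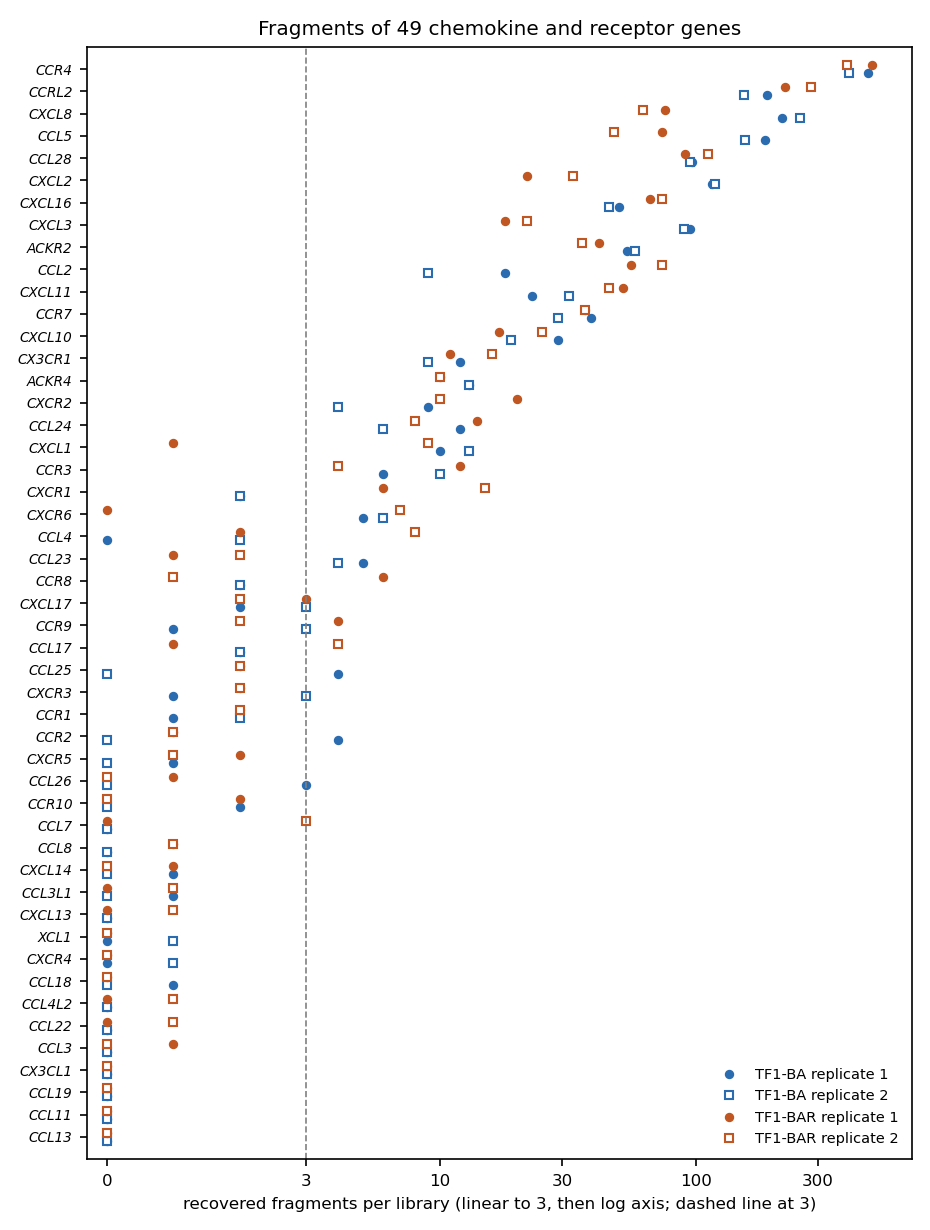
Recovered fragments of 49 of the 50 chemokine and receptor genes (rows, ordered by their total) in each of the 4 libraries, on an axis that is linear up to the dashed line at 3 fragments and logarithmic beyond it. Circles are replicate 1 and squares replicate 2 of TF1-BA (blue) and TF1-BAR (orange); 18 genes lie beyond 3 fragments in all libraries and 4 genes lie at 0 in all of them.

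**Figure D2:**
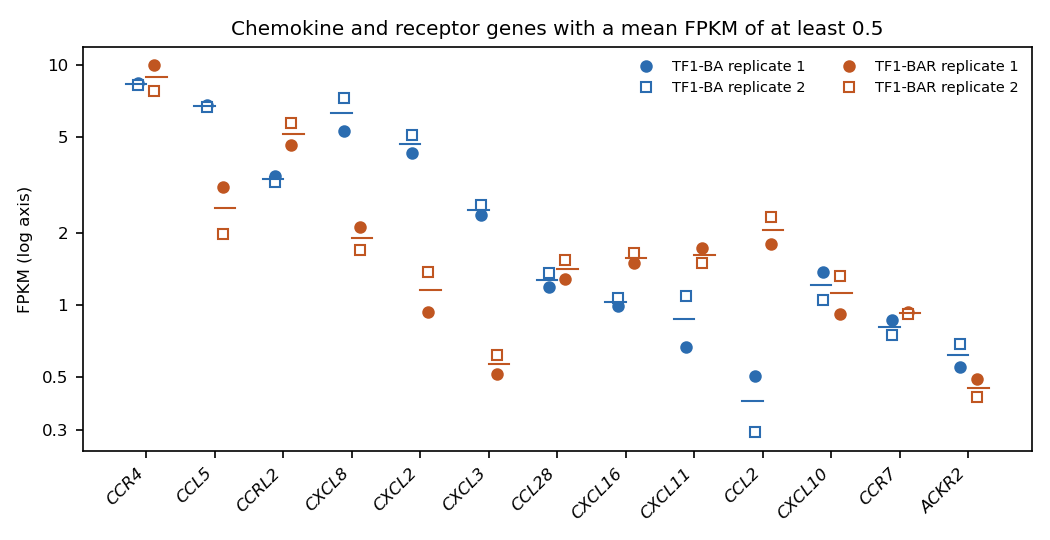
FPKM (log axis) of the 13 tested genes in each library, with short lines at the mean of each cell line. The TF1-BAR points lie below all TF1-BA points for CCL5, CXCL8, CXCL2, CXCL3 and ACKR2 and above them for CCRL2, CXCL16, CXCL11, CCL2 and CCR7.

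The ligands of the receptors CXCR1 and CXCR2 accounted for most of the fall of the ligand sum. Together, CXCL1, CXCL2, CXCL3 and CXCL8 held 31.0% and 36.9% of the members' FPKM in TF1-BA and 10.9% and 12.6% in TF1-BAR. CXCL8 (interleukin 8, ENSG00000169429), the main attractant of neutrophils, lies at chr4:73740506-73743716 of GRCh38. It was at 5.31 and 7.28 FPKM in TF1-BA (218 and 256 fragments) and at 2.12 and 1.70 FPKM in TF1-BAR (76 and 62 fragments). Both TF1-BAR libraries were low and the lines did not overlap. The log2 fold change was -1.49 ± 0.18 (SE), with a 95% interval from -1.94 to -1.03 and an adjusted p of 0.00901 by limma. Under the alternatives that kept all 4 libraries the adjusted p of CXCL8 lay between 3.68e-05 and 0.0486.

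CXCL2 and CXCL3 belong with CXCL1 to the growth-regulated (GRO) chemokines, which act on CXCR2. CXCL2 (chr4:74097035-74099293) was at 4.29 and 5.13 FPKM in TF1-BA and at 0.931 and 1.37 FPKM in TF1-BAR, from 116, 119, 22 and 33 fragments. It was high in both sensitive libraries and low in both resistant ones. Its log2 fold change was -1.67 ± 0.17 (SE; 95% interval -2.11 to -1.22; adjusted p = 0.00704). CXCL3 (chr4:74036589-74038807) was at 2.37 and 2.62 FPKM in TF1-BA and at 0.515 and 0.617 FPKM in TF1-BAR, from 95, 90, 18 and 22 fragments. Again the lines did not overlap. The log2 fold change of CXCL3 was -1.49 ± 0.14 (SE; 95% interval -1.85 to -1.13; adjusted p = 0.00603). Both genes were called in every alternative that kept all 4 libraries, with an adjusted p of at most 0.0440 for CXCL2 and 0.0378 for CXCL3. CXCL1, the third GRO gene, stayed under the filter, with 10 and 13 fragments in TF1-BA and 1 and 9 in TF1-BAR. In FPKM the lines overlapped, since TF1-BA replicate 1 was sequenced more deeply, and without the filter its adjusted p was 0.434.

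CXCL8 and the GRO genes are neighbours in the CXC gene cluster of chromosome 4, and the bases before their starts are shown because they share a stretch. The NF-kB motif searched was GGAATTTCC, on both strands, in the RefSeq promoters (GRCh38.p14, 250 bases before to 50 after the start of each gene). It was found in 0.461% of 35116 promoters. Of the 34 members with a promoter in the table it was found in 6, namely CXCL1, CXCL2, CXCL3, CXCL8, CXCL10 and CXCL11. CCL5 and CCL2 were among the members whose promoters were not searched. The windows below hold 30 bases on each side of the match, with the match in capitals, and are written on the strand of the gene. They are at chr4:73740448-73740516 (plus strand) for CXCL8, chr4:73869285-73869353 (plus) for CXCL1, chr4:74038729-74038797 (minus) for CXCL3, chr4:74099234-74099302 (minus) for CXCL2, chr4:76023635-76023703 (minus) for CXCL10 and chr4:76036107-76036175 (minus) for CXCL11.
CXCL8: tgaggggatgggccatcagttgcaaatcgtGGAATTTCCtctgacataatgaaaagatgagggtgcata
CXCL1: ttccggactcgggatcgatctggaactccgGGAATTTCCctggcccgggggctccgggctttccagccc
CXCL3: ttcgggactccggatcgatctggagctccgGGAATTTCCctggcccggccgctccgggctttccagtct
CXCL2: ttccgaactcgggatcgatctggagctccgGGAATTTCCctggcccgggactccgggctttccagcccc
CXCL10: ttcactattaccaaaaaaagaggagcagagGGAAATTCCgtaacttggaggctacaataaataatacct
CXCL11: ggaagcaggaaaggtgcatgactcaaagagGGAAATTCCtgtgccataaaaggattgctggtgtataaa

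The match began 91 bases before the RefSeq start in CXCL8, 78 in CXCL1 and CXCL3 and 77 in CXCL2, and it lay on the strand of the gene. In CXCL10 and CXCL11 it was on the other strand and began 176 and 75 bases before the start. The windows of CXCL1 and CXCL3 were identical at 62 of 69 bases, those of CXCL1 and CXCL2 at 56 and those of CXCL2 and CXCL3 at 52, whereas CXCL8 shared 25 or 26 bases with them. These counts include the 9 bases of the match, on which the windows were aligned. With CXCL11, whose match is on the other strand, CXCL8 shared 29 bases. Of the 5 tested genes with this match, CXCL2, CXCL3 and CXCL8 were lower in TF1-BAR, and CXCL10 and CXCL11 were not called. Motifs of other factors were common in promoters at large: TGANTCA (AP-1) in 7.71%, TTCNNNGAA (STAT5) in 7.66% and TTGCNNAA (C/EBP) in 10.5%, and they were found in 8, 8 and 6 members. N stands for any base, so these patterns fix fewer letters than GGAATTTCC, which was searched as an exact string. Their shares therefore cannot be compared with that of the NF-kB motif. No matches of different motifs overlapped in the promoters of members, 0 in all. A match describes letters in these windows and does not show binding.

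The coding sequences of CXCL1, CXCL2 and CXCL3 were 90.7% to 94.4% identical, and each was 51.6% to 54.1% identical to that of CXCL8. None of their transcripts shared a stretch of 150 bases, the read length, so 0 such windows were common to any pair. How the authors' counting split shorter matches is not stated, and the values of these genes may hold a few of each other's fragments. The genes between CXCL8 and CXCL11 were examined beside the decrease, and genes before CXCL8 were not. This region spans 2300.909 kb, and CXCL1, CXCL3 and CXCL2 start 128.887, 296.083 and 356.529 kb from the start of CXCL8. Of 23 further genes listed there, 7 were tested and 0 were called by limma or by limma voom on the recovered fragments, with 0 at an unadjusted p under 0.05. Of all genes, 4.75% were called by limma. Their log2 fold changes lay between -0.12 and 0.12. The nearest tested gene beyond CXCL2, MTHFD2L, a mitochondrial folate enzyme, was at -0.07 (adjusted p = 0.823). MTHFD2L starts 373.668 kb from the start of CXCL8, and the next tested gene, RCHY1, 1738.53 kb from it. No further tested gene lay between CXCL8 and CXCL2, so the reach of the decrease within the cluster is not shown. The median log2 fold change of all 526 tested genes of chromosome 4 was -0.01.

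**Figure D3:**
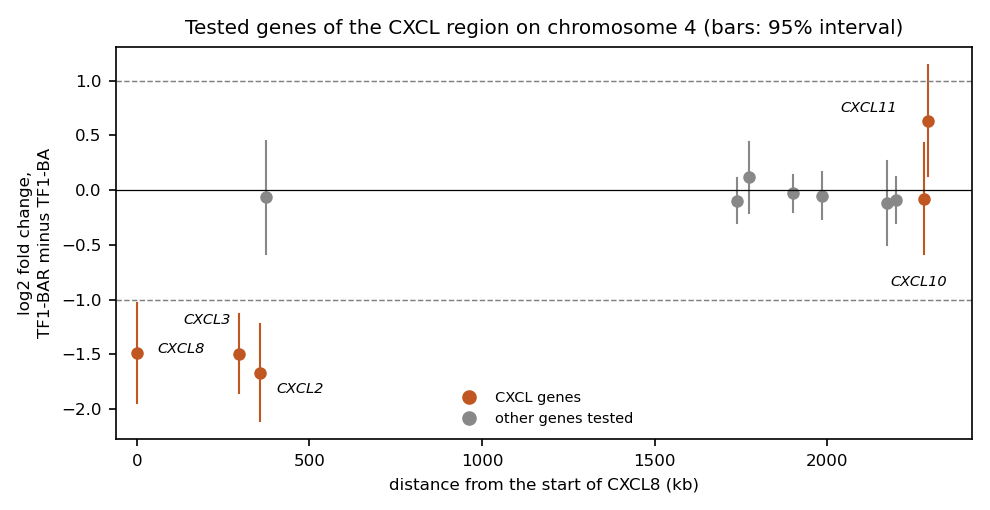
Log2 fold change (TF1-BAR minus TF1-BA) of the tested genes between CXCL8 and CXCL11 against the distance of their start from the start of CXCL8 in kb, with 95% intervals from limma. CXCL genes are orange and the 7 other genes are grey; CXCL8, CXCL3 and CXCL2 lie below the dashed line at -1, and the grey points lie between -0.12 and 0.12.

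CXCL10 and CXCL11, which are induced by interferon and attract T cells through CXCR3, lie 2280.611 and 2293.176 kb from CXCL8. CXCL10 was at 1.37 and 1.04 FPKM in TF1-BA and at 0.917 and 1.32 FPKM in TF1-BAR, so the lines overlapped. Its log2 fold change was -0.08, with an interval from -0.59 to 0.43 (adjusted p = 0.789), and its sign turned when TF1-BA replicate 1 or TF1-BAR replicate 1 was left out. CXCL11 was at 0.668 and 1.08 FPKM in TF1-BA and at 1.73 and 1.50 FPKM in TF1-BAR, from 23, 32, 52 and 46 fragments. Both resistant libraries lay above the sensitive ones. The log2 fold change of 0.63 (95% interval 0.12 to 1.14) missed the threshold with an adjusted p of 0.0725, and voom on the recovered fragments gave 0.93 with an adjusted p of 0.0244. Their receptor CXCR3 had at most 3 fragments in every library.

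CCL5 (RANTES, chr17:35871491-35880793) attracts T cells, monocytes and eosinophils through receptors that include CCR1 and CCR3. It was at 6.82 and 6.67 FPKM in TF1-BA and at 3.11 and 1.97 FPKM in TF1-BAR, from 186, 156, 74 and 48 fragments. The sensitive libraries were alike and the resistant ones lower, without overlap. Its log2 fold change was -1.28 ± 0.19 (SE; 95% interval -1.77 to -0.79; adjusted p = 0.0131). Without a filter on low values its adjusted p was 0.0636 and CCL5 was no longer called. Of the 8 T and NK cell markers in the table, 3 were tested, CD3E had at most 1 fragment per library, and their summed level was 29.9 to 30.7 FPKM in TF1-BA and 18.6 to 18.9 FPKM in TF1-BAR. These markers moved in opposite directions: CD3D, a subunit of the T cell receptor complex, fell from 19.2 and 20.7 FPKM to 5.74 and 6.36 FPKM (adjusted p = 0.00282), GNLY, which passed the filter only through TF1-BA (means 1.10 and 0.483 FPKM), was also lower by the adjusted p, and NKG7 was higher, at 9.25 and 8.64 FPKM against 12.2 and 11.6 FPKM (adjusted p = 0.0254). Their part in the difference of CCL5 was not tested.

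CCL2 (monocyte chemoattractant protein 1, chr17:34255218-34257203) attracts monocytes through CCR2. It was at 0.502 and 0.293 FPKM in TF1-BA, from 18 and 9 fragments, and at 1.79 and 2.32 FPKM in TF1-BAR, from 56 and 74 fragments. Both resistant libraries were high and the lines did not overlap. The TF1-BA mean alone was 0.398 FPKM, under the filter, so the gene entered the test through its level in TF1-BAR. The log2 fold change was 1.51 ± 0.20 (SE; 95% interval 0.99 to 2.03; adjusted p = 0.0110), and it was 2.34 by voom on the recovered fragments, where no pseudocount of 0.5 FPKM holds down low values. Without the filter the adjusted p was 0.0529. Of the 6 monocyte and macrophage markers in the table, CSF1R and VSIG4 were tested and were both called higher in TF1-BAR, as were 3.05% of all genes, CSF1R passing the filter through its level there (mean 1.33 FPKM, against 0.271 FPKM in TF1-BA), whereas CD14 had 0, 0, 2 and 0 fragments and CD163 had 1, 0, 0 and 0. Their summed level was 1.66 to 1.87 FPKM in TF1-BA and 4.50 to 5.17 FPKM in TF1-BAR, and that of 6 fibroblast markers 0.870 to 0.932 and 1.64 to 1.67 FPKM. The fibroblast sum followed LUM alone, with means of 0.213 and 1.14 FPKM, whereas COL1A1 (0.412 and 0.281 FPKM) and PDGFRA (0.202 and 0.119 FPKM) were lower in both TF1-BAR libraries. Their part in the difference of CCL2 was not tested.

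Among the remaining ligands, CXCL16 and CCL28 passed the filter. CXCL16, a membrane-bound ligand of CXCR6 that also takes up oxidised lipoprotein, was at 0.992 and 1.06 FPKM in TF1-BA and at 1.50 and 1.65 FPKM in TF1-BAR. The resistant libraries lay above the sensitive ones, with a log2 fold change of 0.44 (95% interval 0.10 to 0.78) and an adjusted p of 0.0673, which was 0.0420 with voom. Exons of CXCL16 share 76 bases with MED11 and 96 with ZMYND15 on the other strand, out of 2793, and the counting is not stated to use strand. CCL28, a mucosal ligand of CCR10 and CCR3, was at 1.19 and 1.36 FPKM in TF1-BA and at 1.28 and 1.54 FPKM in TF1-BAR. Its lines overlapped, with a log2 fold change of 0.10 between -0.27 and 0.48 (adjusted p = 0.626).

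The ligands under the filter were represented by few fragments. In the order TF1-BA replicates 1 and 2 and TF1-BAR replicates 1 and 2, CCL24 (eotaxin 2) had 12, 6, 14 and 8 fragments. CCL23, a myeloid CC ligand, had 5, 4, 1 and 2 fragments. CCL17, a ligand of CCR4, had 2, 2, 1 and 4 fragments. In a fit without the filter none of these 3 passed, with adjusted p of 0.656, 0.122 and 0.841 by limma. CCL4, an attractant of monocytes and T cells, had 0, 2, 2 and 8 fragments, and CCL25, the ligand of CCR9, had 4, 0, 2 and 2. At most 3 fragments in every library were found for CCL3, CCL3L1, CCL4L2, CCL7, CCL8, CCL18, CCL22, CCL26, CXCL13, CXCL14, CXCL17 and XCL1. No fragment was found for CCL11, CCL13, CCL19 and CX3CL1, and a count of 0 allows up to 3 fragments in a library.

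Of the receptors, CCR4 was the most highly expressed member in all 4 libraries. CCR4, the receptor of CCL17 and CCL22 on type 2 helper and regulatory T cells, was at 8.47 and 8.27 FPKM in TF1-BA and at 10.0 and 7.82 FPKM in TF1-BAR, from 473, 396, 488 and 389 fragments. The lines overlapped. Its log2 fold change was 0.08, with an interval from -0.26 to 0.41 (adjusted p = 0.690). CCR4 was 21.2% and 19.4% of the members' summed FPKM in TF1-BA and 30.2% and 23.9% in TF1-BAR, where the sum itself was lower. Its ligands CCL17 and CCL22 had at most 4 fragments in any library.

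CCRL2, a receptor-like protein that binds the attractant chemerin without signalling, was at 3.44 and 3.25 FPKM in TF1-BA and at 4.64 and 5.73 FPKM in TF1-BAR, from 190, 154, 224 and 282 fragments. Both resistant libraries were above the sensitive ones. CCRL2 rose by a log2 fold change of 0.56 ± 0.12 (SE; 95% interval 0.24 to 0.87; adjusted p = 0.0312), past the adjusted p but under the fold threshold. Without the filter the adjusted p of CCRL2 was 0.0960, and without a trend in the spread 0.0511. Leaving out TF1-BA replicate 1, TF1-BA replicate 2 or TF1-BAR replicate 2 gave CCRL2 adjusted p of 0.145, 0.168 and 0.0924. CCR7, the lymph node homing receptor for CCL19, was at 0.862 and 0.748 FPKM in TF1-BA and at 0.936 and 0.918 FPKM in TF1-BAR. The resistant libraries were slightly above the sensitive ones, with a log2 fold change of 0.13 between -0.28 and 0.54 (adjusted p = 0.568) that turned to -0.02 after quantile normalization. ACKR2, an atypical receptor that removes inflammatory CC chemokines, was at 0.548 and 0.687 FPKM in TF1-BA and at 0.488 and 0.410 FPKM in TF1-BAR. The TF1-BAR libraries were lower, but the log2 fold change of -0.23 had an interval from -0.75 to 0.28 (adjusted p = 0.420). The TF1-BAR mean of ACKR2 was 0.449 FPKM, under the filter, so the gene entered the test through its level in TF1-BA. Exons of ACKR2 share 142 bases with CYP8B1 on the other strand and up to 698 bases with each of 4 unnamed genes, out of 5460, so part of its fragments may belong to them.

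**Figure D4:**
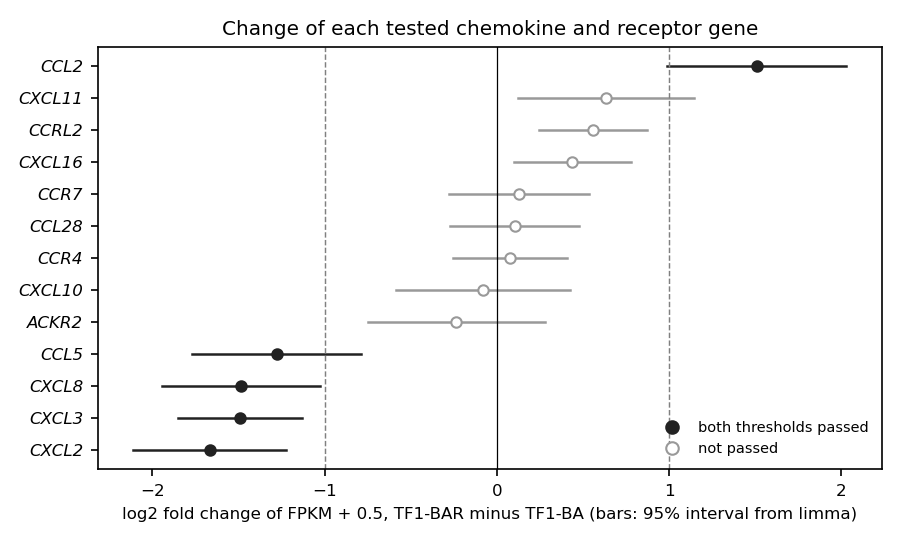
Log2 fold change of FPKM + 0.5 (TF1-BAR minus TF1-BA) of the 13 tested genes with 95% intervals from limma, where filled points passed both thresholds and dashed lines mark a change of 1. CXCL2, CXCL3, CXCL8 and CCL5 lie on the left and CCL2 on the right, and the intervals of CCR7, CCL28, CCR4, CXCL10 and ACKR2 include 0.

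The signalling receptors named here for the downregulated ligands were close to the limit of detection. The atypical receptors ACKR1 and ACKR2 passed the filter. CXCR1, which binds CXCL8, had 2 and 2 fragments in TF1-BA and 6 and 15 in TF1-BAR. CXCR2, which binds CXCL8 and the GRO chemokines, had 9 and 4 fragments in TF1-BA and 20 and 10 in TF1-BAR. In both genes the resistant libraries were above the sensitive ones, and in a fit without the filter their adjusted p was 0.217 and 0.331. Coding sequences of the 2 receptors were 82.2% identical. Of the receptors for CCL5, CCR3 had 6, 10, 12 and 4 fragments, and CCR1 had at most 3 per library. CCR2, the receptor for CCL2, had 4, 0, 1 and 1 fragments. Neutrophil markers were also low, with a summed level of 0.513 to 1.04 FPKM in TF1-BA and 1.31 to 1.64 FPKM in TF1-BAR over 5 genes, and S100A9 was at 0 in 3 of the 4 libraries. Their part in the difference of CXCL8 was not tested.

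Further receptors had more than 3 fragments in a library and did not pass the adjusted p in a fit without the filter. CX3CR1, the receptor of CX3CL1, had 12, 9, 11 and 16 fragments in TF1-BA replicates 1 and 2 and TF1-BAR replicates 1 and 2. ACKR4, which removes CCL19 and CCL25, had 13, 13, 10 and 10 fragments. CXCR6 had 5, 6, 0 and 7, and CCR8, a receptor of T cell subsets, had 2, 2, 6 and 1. CCR9 had at most 4 fragments. CXCR4, which retains haematopoietic cells in the bone marrow, had 0, 1, 0 and 0 fragments, and CCR10, CXCR3 and CXCR5 had at most 3 in every library. With no filter on low values 46 members could be tested and CXCL2, CXCL3 and CXCL8 remained called. The lowest adjusted p of a member under the filter was then 0.0821, for CCL8, which had only 0, 0, 1 and 1 fragments.

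Genes that act with chemokines were taken from 6 lists, which held 64 genes, 52 of them tested. The adjusted p was under 0.05 in 15 that were higher in TF1-BAR and 3 that were lower, 34.6% against 26.9% of all genes, and the fold threshold was passed by 1 higher gene and 0 lower ones. By limma 5 lower genes had an unadjusted p under 0.05, and voom called 5 genes in all, 1 of them lower. The gene called was CTSG (cathepsin G), a serine protease that trims chemokines. It was at 11.3 and 14.9 FPKM in TF1-BA and at 49.9 and 48.3 FPKM in TF1-BAR, a log2 fold change of 1.88 ± 0.14 (SE; adjusted p = 0.00409). The resistant libraries were far above the sensitive ones. The processing list had 4 tested genes, of which 3 were higher by the adjusted p, 75% of those tested against 26.9% of all genes. The remaining tested gene, TPST1, a sulphotransferase, had a log2 fold change of -0.56 (adjusted p = 0.0746).

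Receptor signalling genes were expressed in both lines. Of 9 G protein genes, 0 passed the adjusted p by limma, 4 had an unadjusted p under 0.05 and voom gave 3, and the highest, GNG5, was at 82.6 and 82.5 FPKM in TF1-BA and 78.5 and 79.3 FPKM in TF1-BAR. Of 11 tested receptor kinases, arrestins and RGS proteins, which end the receptor signal, 5 were higher and 2 were lower by the adjusted p, 63.6% against 26.9% of all genes. RGS10, the most abundant of them by the mean of the 4 libraries, fell from 73.7 and 76.7 FPKM to 54.0 and 48.8 FPKM, a log2 fold change of -0.55 (adjusted p = 0.0111). RGS19, named after its values were seen, rose from 39.6 and 38.1 FPKM to 69.7 and 79.7 FPKM, a log2 fold change of 0.93 (adjusted p = 0.00570), and was above RGS10 in both TF1-BAR libraries. Of 17 effectors of cell movement, 7 were higher and 0 lower by the adjusted p, 41.2% against the same 26.9%, with 7 in all at an unadjusted p under 0.05 and 8 passing in voom. PIK3R5, a regulatory subunit of phosphoinositide 3-kinase gamma, and PLCB2, a phospholipase C, were chosen after their values were seen, and rose by 0.95 and 0.94 on the log2 scale (adjusted p = 0.00603 and 0.00561). RHOA, a GTPase of cell contraction and the most abundant effector, was at 205 to 215 FPKM in all libraries, with a log2 fold change of -0.04 (adjusted p = 0.585).

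Of 8 tested genes of the NF-kB pathway, 1 was lower and 0 were higher by the adjusted p, 12.5% against 26.9% of all genes, while 4 had an unadjusted p under 0.05 by limma and 3 passed in voom. RELA, NFKBIA and NFKBIE, named after their values were seen, had log2 fold changes of 0.35, 0.31 and 0.38 (adjusted p = 0.104, 0.0739 and 0.0828). The lower gene was NFKB2, which encodes the precursor of the p52 subunit and was the most abundant of the list. It was at 30.2 and 30.04 FPKM in TF1-BA and at 15.7 and 19.1 FPKM in TF1-BAR, without overlap, and the log2 fold change was -0.78 ± 0.11 (SE; adjusted p = 0.0114). A part of NFKB2 in the differences of CXCL8, CXCL2 and CXCL3 was not tested. In the list of other ligands and receptors, 3 genes were tested and 0 passed by limma, with 2 at an unadjusted p under 0.05 and 2 called by voom. CD74, a receptor for the cytokine MIF, was at 197 and 213 FPKM in TF1-BA and at 204 and 206 FPKM in TF1-BAR.

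**Figure D5:**
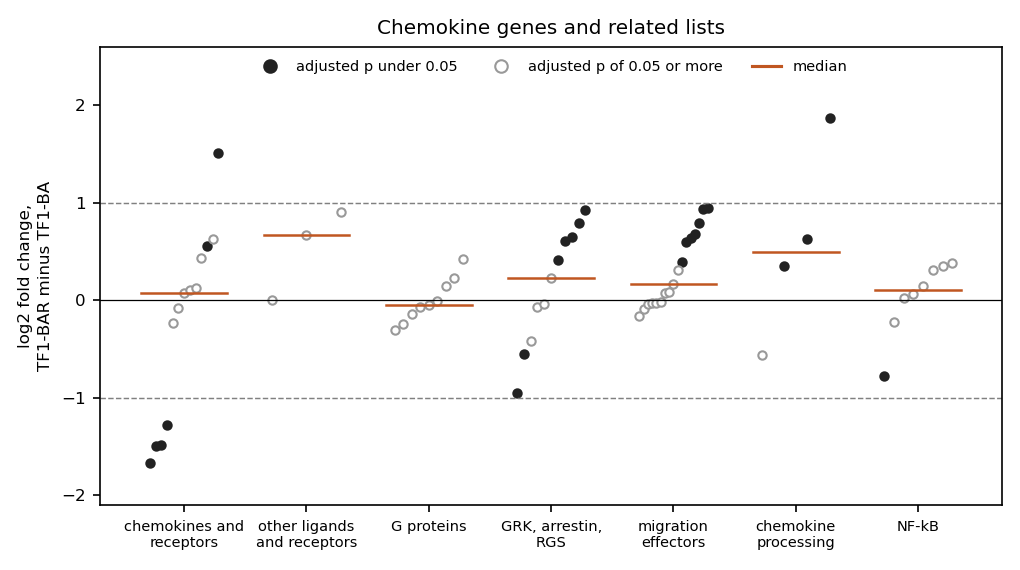
Log2 fold change (TF1-BAR minus TF1-BA) of each tested gene, for the 13 chemokine and receptor genes and the 6 related lists, with filled points for an adjusted p under 0.05, orange lines at the median of each list and dashed lines at a change of 1. Beyond the chemokine genes, CTSG in the processing list is the point outside the dashed lines.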

How the data were processed

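The authors sequenced 150-bp paired-end libraries from a NEBNext Ultra kit, mapped the reads to GRCh38 with TopHat2 2.0.13 and ran Cufflinks 2.2.0 and Cuffdiff 2.2.0, as their methods and processing notes state. The release of the annotation and a strand setting are not given in the sources used here. The deposited values are FPKM per gene and library, with no log transformation. Libraries were assigned to lines from their labels.

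The rule for the members reads symbols and gene type, but members, gene lists and tests were chosen with earlier results of these data known. FPKM were tested as log2(FPKM + 0.5) with limma 3.58.1 in R 4.3.3 (lmFit, eBayes with trend), over the 15519 genes with a mean of at least 0.5 FPKM, with Benjamini-Hochberg adjustment. Fold changes on this scale understate the change of low genes. Called genes had a log2 fold change of at least 1 in size and an adjusted p under 0.05, thresholds that follow the authors' methods, which used DESeq2.

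Fragments were recovered by finding library sizes and gene lengths at which a gene's FPKM become whole numbers (within 0.001) in all libraries. This held for 14220 genes at the GENCODE 44 exon length and for 16623 at a fitted length, with 10 not whole, and for 0 of 300 genes with wrong sizes. A fitted length can be off by a common whole factor. Depth was 15465497 to 18042299 fragments per library, 3 fragments were taken as the floor, and fragment numbers cover counting error only.

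Every member is named except 1 receptor gene, which is counted but not reported here. Of the related lists, the genes called and the most abundant gene of each list are named. Further genes of these lists were named after their values were seen. Alternatives changed the pseudocount, filter, scaling, moderation, call rule, unit (limma voom on fragments), replicate block and each library in turn. Promoters were taken from RefSeq (GRCh38.p14), which matched 34 members, and coding sequences from GENCODE 44, aligned with Biopython 1.88. The annotation columns of the table other than symbol, type and position were not used.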

Additional observations from a re-analysis of the deposited data

How the results depend on the processing

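The 5 called members were the same genes under each alternative that kept all 4 libraries and the filter at 0.5 or 1 FPKM, and 3 remained with no filter. Leaving out each library in turn gave 0 to 5 called members, 42 to 783 genes in all and 1 to 4 related genes, 4 without TF1-BAR replicate 1. Over all genes, 737 were called, against 487 with a pseudocount of 1 FPKM, 1145 with limma voom on the fragments and 4167 by the adjusted p alone, which passed 6 members. The related genes called rose from 1 to 3 with a pseudocount of 0.1 FPKM, 2 with upper-quartile scaling, 2 with quantile normalization, 6 after rescaling to TPM, 5 with voom and 18 by the adjusted p alone. The share of calls that were higher in TF1-BAR was 64.3%, and 51.5% after quantile normalization. Signs that turned belonged to genes that were not called. With quantile normalization CCL28 turned to -0.0226 and CCR7 to -0.0210, and with upper-quartile scaling CCR4 turned to -0.0121. Leaving out each library in turn gave CCR4 -0.0927 to 0.244 and CXCL10 -0.261 to 0.102, which was 0.0572 without TF1-BA replicate 1. The causes were not tested. Libraries with the same replicate number deviated together only weakly (r = 0.06 across 15519 genes, which are not independent), so the numbers were not taken as pairs, and with the replicate block 755 genes and 5 members were called.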

Other observations

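Markers of other cell types were summed per library in these lines. Those of mast cells and basophils stood at 261 to 273 FPKM in TF1-BA and 363 to 375 FPKM in TF1-BAR, a sum of which GATA2 alone held 195 to 241 FPKM. Of the 7 tested genes, 4 were called higher in the resistant cells, against 3.05% of all genes. CPA3, one of the 4, passed the filter only through TF1-BAR (means 0.142 and 1.53 FPKM), whereas the tryptase gene TPSB2 was lower, at 10.9 and 10.5 FPKM against 6.02 and 6.37 FPKM (log2 fold change -0.74, adjusted p = 0.00710), and TPSAB1 was at 4.95 and 3.85 FPKM against 3.19 and 3.29 FPKM (adjusted p = 0.0952). Of 4 tested megakaryocyte markers, 1 was called higher, and their list summed to 142 to 150 FPKM in TF1-BA and 194 to 217 FPKM in TF1-BAR. B cell markers summed to 5.67 to 6.35 FPKM and 11.7 to 12.3 FPKM, with 1 of 3 called higher, and eosinophil markers to 3.88 to 5.54 FPKM and 1.89 to 1.95 FPKM, with 1 of 2 tested genes called lower, against 1.69% of all genes. These lists were chosen with earlier results known, and they overlap with genes that TF1 cells express.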
